A study of Homo sapiens with 12 samples.

Results

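The mitochondrial genes for mt-tRNA Ile (MT-TI) and mt-tRNA Gln (MT-TQ) lie on opposite strands of the mitochondrial genome, and their 3′ ends overlap by 3 nt. They were chosen for this position, but with earlier results of these data known, and they make up 2 of the 22 mt-tRNAs measured. Their 3′ ends were read by MPAT-Seq, a sequencing assay that joins a linker to 3′ ends and then amplifies every mt-tRNA between a forward primer of its own and a primer on the linker, as the study's methods describe it. The labels call these libraries resequencing of pooled amplicons after a circularization step, which the methods used here do not describe, so what forms the 3′ end of a read rests on the methods. All cells were HEK293T, a line derived from human embryonic kidney.

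There was 1 MPAT-Seq library for each of 6 conditions. PDE12+/+ cells held the gene for PDE12 intact, and PDE12-/- cells were a clone in which zinc finger nucleases had disrupted both copies. PDE12-/- + WT and PDE12-/- + E351A were PDE12-/- cells with an integrated transgene, induced by doxycycline, for wild-type PDE12 or for a form with a mutated catalytic residue. PDE12+/+ + mtPAP and PDE12-/- + mtPAP held such a transgene for mtPAP, the mitochondrial poly(A) polymerase. The labels of the 2 mtPAP libraries give the genotypes the other way round from the name deposited with and printed inside each table, and the deposited name is used here. RNA-seq of RNA from enriched mitochondria gave 3 samples of PDE12+/+ and 3 of PDE12-/-. Nothing in the labels says that these 3 came from separate cultures, so their spread may be technical. The PDE12 gene is nuclear, and its transcript was not analysed here.

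Mitochondrial tRNAs are cut out of long transcripts of each strand of the genome. The 3′ trailer is removed by ELAC2, the mitochondrial tRNase Z, at the base that precedes CCA in the mature tRNA, which is called the discriminator base (DB). TRNT1 then adds CCA, which is not encoded, and the amino acid is attached to its last A. mtPAP adds A residues to mitochondrial RNA, and PDE12 is a 3′ to 5′ exoribonuclease that removes them. mt-tRNA Ile carries isoleucine and mt-tRNA Gln carries glutamine to the mitochondrial ribosome.

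The genes are printed 5′ to 3′ as DNA on their own strand, with the 3 overlapping bases in capitals, since every position discussed later starts at these bases. Sequence and coordinates are those of the GRCh38 mitochondrial genome with GENCODE release 44. MT-TI (ENSG00000210100.1) is a gene of 69 nt on the + strand at chrM:4263-4331, and MT-TQ (ENSG00000210107.1) is a gene of 72 nt on the - strand at chrM:4329-4400. Both are wholly mt-tRNA, with no intron.
MT-TI: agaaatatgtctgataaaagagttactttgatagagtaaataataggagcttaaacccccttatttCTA
MT-TQ: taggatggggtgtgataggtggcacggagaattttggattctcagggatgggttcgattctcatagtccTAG
The DB is therefore an encoded A in mt-tRNA Ile and an encoded G in mt-tRNA Gln, and a tail of A that starts at the DB can be seen only in mt-tRNA Gln. The 2 tRNAs come from transcripts of opposite strands, so that the shared 3 base pairs are copied once into each.

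The next 12 bases of the genome beyond each gene, in capitals, are shown with the last 12 of the gene because they are what an uncut transcript would carry at +1 to +12, where +1 is the first position after the DB.
MT-TI end: cccttatttctaGGACTATGAGAA
MT-TQ end: tcatagtcctagAAATAAGGGGGT
For mt-tRNA Ile, both bases of the genome at +1 and +2 differ from the CC of CCA and from the A of a tail. For mt-tRNA Gln, the genome has A at +1, +2 and +3, which cannot be told apart from a tail of A.

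The forward primers, printed because they set where a read begins, match bases 2 to 26 of MT-TI and bases 1 to 25 of MT-TQ.
MT-TI primer: gaaatatgtctgataaaagagttac
MT-TQ primer: taggatggggtgtgataggtggcac
Between the primer and the 3′ end of the gene lie 43 bases of MT-TI and 47 bases of MT-TQ.

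The tables give the number of reads that cover the DB and each position after it, with the number of reads of each base. Reads at +3, the A of CCA, ranged from 173 to 11109 for mt-tRNA Ile and from 62 to 8172 for mt-tRNA Gln. In the 6 libraries mt-tRNA Ile stood between place 15 and place 21 of 22 by reads at +3, and mt-tRNA Gln between place 17 and place 21, so both were among the less deeply read. Each mt-tRNA had its own primer, so reads do not measure the amount of RNA. The study also cautions that reverse transcriptase has to pass modified bases, which may overstate 3′ changes of unmodified molecules. Shares of reads may therefore differ from shares of tRNA molecules. Intervals are 95% Wilson intervals and, for differences, Newcombe intervals in percentage points. They cover counting error only, since reads copied by PCR without molecular identifiers are not independent molecules. With 1 library per condition there is no replicate check and no p-value, and 2 libraries are called apart where their Wilson intervals do not overlap. For mt-tRNA Gln in PDE12-/-, the deposited C column holds the same value, 409, at every position, so the C reads there were computed as all reads minus those of A, G and T.

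Most reads of mt-tRNA Gln ended at the mature CCA end in PDE12+/+, while most reads of mt-tRNA Ile went beyond it. Of the reads at the DB, 81.7% (79.9 to 83.3) of mt-tRNA Gln ended at +3 in PDE12+/+ against 37.2% (31.1 to 43.6) of mt-tRNA Ile. Reads at +4 made up 14.2% (12.7 to 15.9) of those at +3 for mt-tRNA Gln and 59.8% (53.0 to 66.2) for mt-tRNA Ile. The share of mt-tRNA Ile was the highest of the 22 mt-tRNAs in that library, next to 56.1% for MT-TS2, and that of mt-tRNA Gln was in place 11, between MT-TT at 18.9% and MT-TE at 11.4%.

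**Figure D1:**
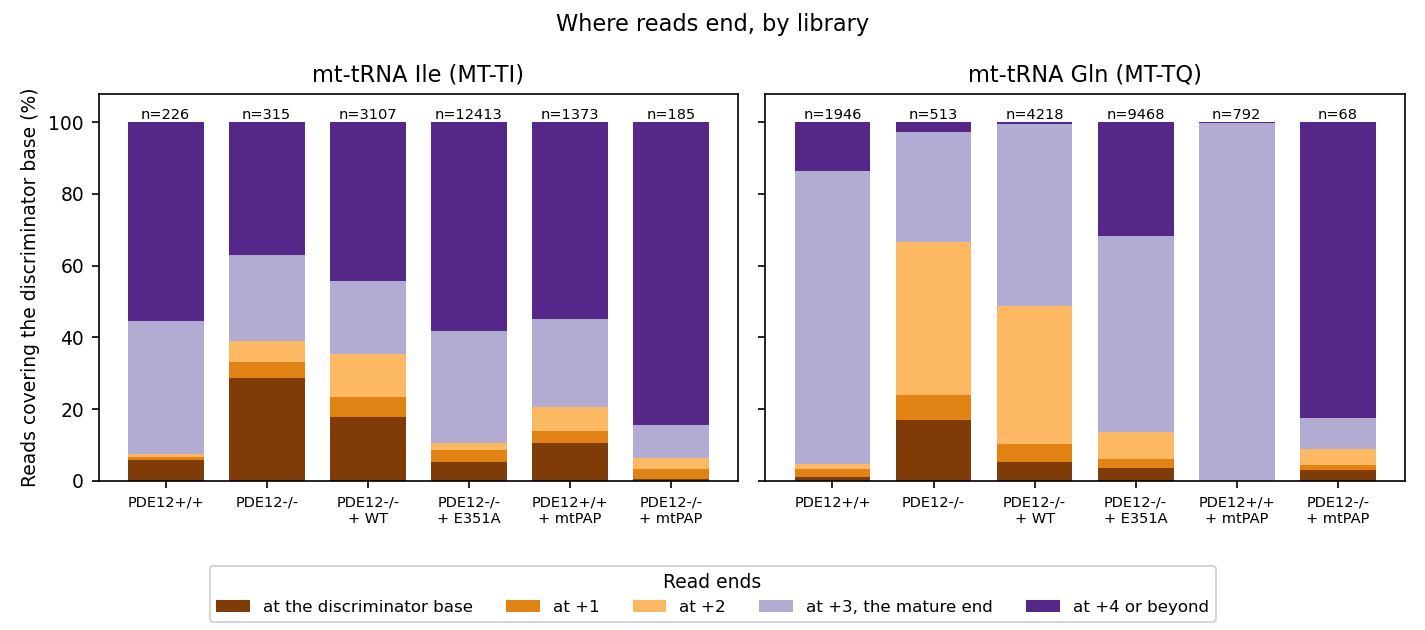
Share of reads covering the discriminator base (y axis, percent) by the last position they cover, in each of 6 libraries (x axis), for mt-tRNA Ile and mt-tRNA Gln. Numbers above the bars are reads at the discriminator base. In PDE12-/- and PDE12-/- + WT, 42.5% and 38.5% of mt-tRNA Gln reads ended at +2, against 1.59% in PDE12+/+.

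PDE12-/- was compared with PDE12+/+ to see how 3′ ends stand without the deadenylase. Reads of mt-tRNA Gln and mt-tRNA Ile ended before +3 far more often in PDE12-/-. Of 513 reads of mt-tRNA Gln at the DB in PDE12-/-, 426 reached +1, 390 reached +2 and 172 reached +3, whereas in PDE12+/+ the numbers were 1946, 1926, 1883 and 1852. Reads that ended before +3 thus made up 66.5% (62.3 to 70.4) in PDE12-/- and 4.83% (3.96 to 5.88) in PDE12+/+, a difference of 61.6 points (57.3 to 65.7). For mt-tRNA Ile they made up 39.0% (33.8 to 44.5) of 315 reads and 7.52% (4.75 to 11.7) of 226 reads, a difference of 31.5 points (24.8 to 37.7). Intervals were apart for both.

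Most other mt-tRNAs had less loss in PDE12-/- than in PDE12+/+. Over all 22 mt-tRNAs, 81.8% had intervals apart in this comparison in either direction. The loss was higher in PDE12-/- with intervals apart in 2 mt-tRNAs, or 9.09%, which were mt-tRNA Ile and mt-tRNA Gln, and lower in 16. In PDE12-/- the other 20 ranged from 0.213% to 20.3% with a median of 3.61%, and the next below mt-tRNA Ile was MT-TY at 20.3%. All 3 were thinly read there. By reads at +3, mt-tRNA Ile stood in place 20 of 22 with 192 and mt-tRNA Gln in place 21 with 172. MT-TY had 433, and the median of the library was 5072.5.

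The positions at which reads stopped differed between the pair. Reads of mt-tRNA Gln in PDE12-/- most often ended at +2, that is with CC in place of CCA, which held for 42.5% (38.3 to 46.8) of the reads at the DB, against 1.59% (1.12 to 2.25) in PDE12+/+. Reads of mt-tRNA Ile in PDE12-/- most often ended short at the DB itself, with 28.6% (23.9 to 33.8) against 5.75% (3.39 to 9.59), and ended at +2 in 6.03% (3.90 to 9.23) against 0.885% (0.243 to 3.17). The ends of mt-tRNA Ile at +2 rest on few reads, 19 of 315 in PDE12-/- and 2 of 226 in PDE12+/+. The share that ended at the DB was also higher for mt-tRNA Gln in PDE12-/-, at 17.0% (14 to 20.4) against 1.03% (0.666 to 1.58). Ends at +2 were higher in PDE12-/- with intervals apart in 2 of the 22 mt-tRNAs, or 9.09%, again the overlapping pair. In PDE12-/- the other 20 had 0% to 4.08% of reads ending at +2. Reads that end before the DB are not in the tables, so losses deeper in the tRNA were not seen.

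Extension beyond CCA had overlapping intervals in the genotypes for both mt-tRNAs. It was 60.9% (53.9 to 67.6) in PDE12-/- and 59.8% in PDE12+/+ for mt-tRNA Ile, a difference of 1.13 points (-8.40 to 10.6). For mt-tRNA Gln it was 8.14% (4.91 to 13.2) and 14.2%, a difference of -6.06 points (-9.69 to -0.781), and the 2 Wilson intervals overlapped although the interval of the difference lay below 0. Over the 22 mt-tRNAs, 77.3% had intervals apart, 16 with more extension in PDE12-/- and 1 with less. Measured over reads at the DB, the difference for mt-tRNA Ile was -18.2 points with intervals apart, so that its sign depends on the denominator. For mt-tRNA Gln the intervals were apart with that denominator, at -10.8 points, and when only A at +4 was counted, at -6.53 points.

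**Figure D2:**
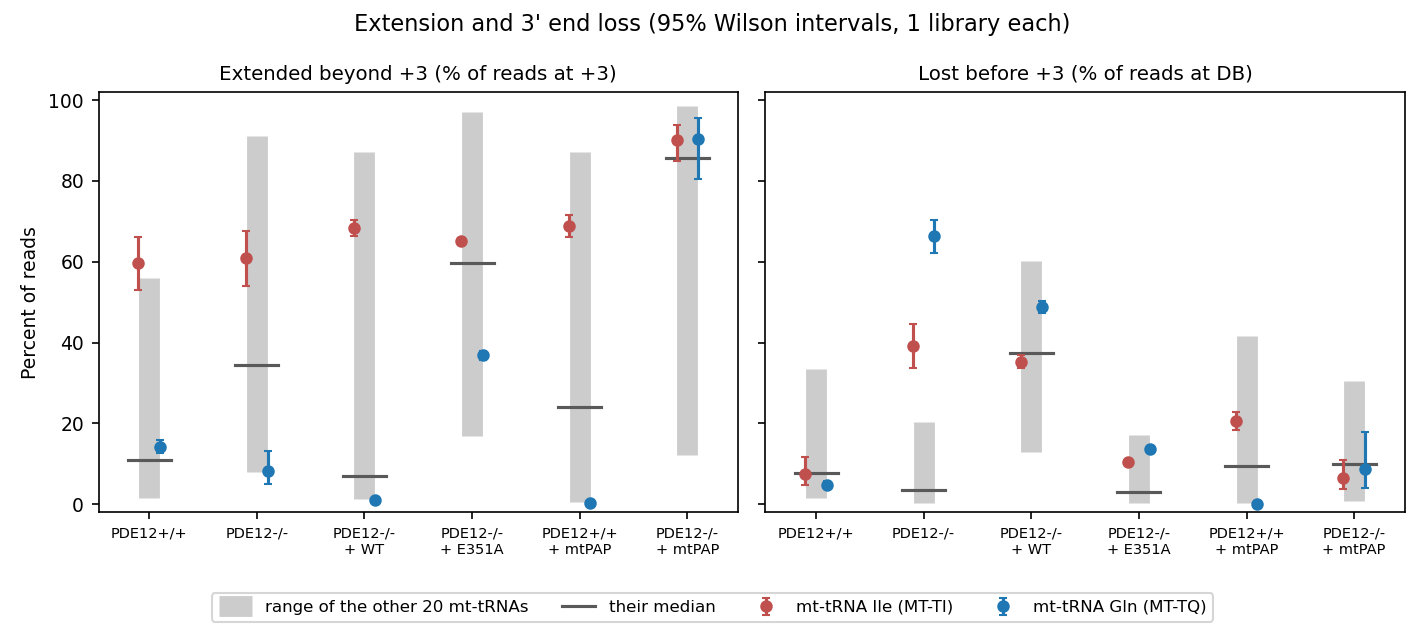
Percent of reads at +3 that were extended (left) and percent of reads at the discriminator base (DB) that were lost before +3 (right) in each library, with 95% Wilson intervals. Grey bars span the other 20 mt-tRNAs and dark lines mark their median. In PDE12-/- both loss values, 66.5% and 39.0%, lie above the highest of the others, 20.3%.

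Expression of wild-type PDE12 in PDE12-/- addresses whether the ends return with the enzyme. For mt-tRNA Gln, extension in PDE12-/- + WT was 1.06% (0.710 to 1.59), from 23 of 2162 reads, a difference of -7.08 points (-12.1 to -3.80) from PDE12-/- with intervals apart. For mt-tRNA Ile it was 68.5% (66.4 to 70.5), from 1376 of 2010 reads, above PDE12-/- by 7.52 points (0.584 to 14.8) with overlapping intervals. The lowest of the 22 values in PDE12-/- + WT was thus that of mt-tRNA Gln and the second highest, after MT-TS2 at 87.2%, that of mt-tRNA Ile. Intervals were apart in 86.4% of the 22 mt-tRNAs, 18 with less extension and 1 with more. Counting only A at +4, the difference for mt-tRNA Ile was -11.0 points (-18.0 to -3.63) with intervals apart, so that its sign depends on which bases count.

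The loss of the 3′ end remained high in PDE12-/- + WT. It was 48.7% (47.2 to 50.3) of 4218 reads for mt-tRNA Gln, a difference of -17.7 points (-22 to -13.3) from PDE12-/-. It was 35.3% (33.6 to 37.0) of 3107 reads for mt-tRNA Ile, a difference of -3.74 points (-9.47 to 1.75) with overlapping intervals, which was 6.60 points when counted from +1. In that library loss was common among all mt-tRNAs, with a median of 37.4% over the other 20. Intervals were apart in 95.5% of the 22, and loss was higher than in PDE12-/- in 20 and lower in 1, which was mt-tRNA Gln. Ends at +2 stood at 38.5% (37.1 to 40.0) for mt-tRNA Gln, the highest share of the 22, and at 11.9% (10.8 to 13.1) for mt-tRNA Ile.

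The E351A mutant, whose catalytic activity is compromised, served as the control for the enzyme's activity. With it, mt-tRNA Gln was extended in 36.9% (35.8 to 37.9) of 8172 reads, 35.8 points (34.6 to 36.9) above PDE12-/- + WT and 28.7 points (23.6 to 32.1) above PDE12-/-, with intervals apart in both. mt-tRNA Ile was extended in 65.1% (64.2 to 66.0) of 11109 reads, a difference of -3.37 points (-5.55 to -1.12) from PDE12-/- + WT with intervals apart and of 4.15 points (-2.53 to 11.3) from PDE12-/- with intervals that overlapped. Across the 22 mt-tRNAs, 100% had intervals apart against PDE12-/- + WT, with more extension for E351A in 21 and less in 1, which was mt-tRNA Ile, and 95.5% had them apart against PDE12-/-. The direction for mt-tRNA Ile against PDE12-/- + WT was the opposite, 6.08 points above, when only reads with A at +4 were counted, and 14 points above with reads at the DB as denominator. With +5 in place of +4 it was -2.05 points and the intervals overlapped. Against PDE12-/-, the difference for mt-tRNA Ile was 21.1 points with intervals apart with reads at the DB as denominator, -4.93 points with only A at +4 and -0.132 points with +5, and in the last 2 of these the intervals overlapped.

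A smaller share of reads ended before +3 in PDE12-/- + E351A than in PDE12-/- or PDE12-/- + WT. Loss before +3 was 13.7% (13 to 14.4) for mt-tRNA Gln and 10.5% (9.98 to 11.1) for mt-tRNA Ile, and both lay below both of those libraries with intervals apart. Against PDE12-/- + WT this held for all 22 mt-tRNAs, or 100%, and against PDE12-/- 68.2% had intervals apart, with lower loss in 11 and higher in 4. Within the E351A library mt-tRNA Gln and mt-tRNA Ile still had the second and the third highest loss, after MT-TS1 at 17.2%, where the median of the other 20 was 3.15%. Loss takes no account of bases, so a read that reached +3 need not hold CCA. For mt-tRNA Ile, 5193 of 11362 reads had C at +2 with E351A, 138 of 211 in PDE12-/- and 1337 of 2379 in PDE12-/- + WT. For mt-tRNA Gln the numbers were 6162 of 8900, 373 of 390 and 3747 of 3787.

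Overexpressed mtPAP, the enzyme that adds A, went with opposite values of mt-tRNA Gln in the genotypes. In PDE12+/+ + mtPAP, 2 of 791 reads of mt-tRNA Gln were extended, or 0.253% (0.0694 to 0.917), against 14.2% in PDE12+/+. In PDE12-/- + mtPAP, 56 of 62 reads were extended, or 90.3% (80.5 to 95.5), against 8.14% in PDE12-/-. The first was the lowest value of the 22 mt-tRNAs in its library, and the second lay among the upper ones, in place 8.

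mt-tRNA Ile was extended in 68.9% (66.1 to 71.6) of 1091 reads in PDE12+/+ + mtPAP and in 90.2% (84.8 to 93.8) of 173 reads in PDE12-/- + mtPAP. The first was 9.12 points (2.12 to 16.4) above PDE12+/+ with overlapping intervals, and the second was 29.2 points (20.7 to 37.2) above PDE12-/- with intervals apart. Between the mtPAP libraries the difference was 21.2 points (15.3 to 25.8) for mt-tRNA Ile and 90.1 points (80.2 to 95.2) for mt-tRNA Gln. Intervals were apart in 86.4% of the mt-tRNAs with against without mtPAP in PDE12+/+. Extension was higher with mtPAP in 15 of these and lower in 4, which included mt-tRNA Gln. In PDE12-/- 95.5% were apart, with more extension in 20 and less in 1. Between the mtPAP libraries 95.5% were apart, with more extension in PDE12-/- + mtPAP in 21 and less in 0. With +5 in place of +4, intervals of mt-tRNA Ile in PDE12-/- + mtPAP overlapped those in PDE12-/-, with a difference of 6.64 points, and those in PDE12+/+ + mtPAP, with a difference of 5.27 points (-2.57 to 12.5). The difference of mt-tRNA Ile in PDE12+/+ with against without mtPAP was -0.539 points with reads at the DB as denominator, and 9.89 points with intervals apart with only A at +4. By the labels the genotypes of these libraries are exchanged, and the values then belong to the other genotype.

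Nearly all reads of mt-tRNA Gln ended at +3 in PDE12+/+ + mtPAP. Of 792 reads of mt-tRNA Gln at the DB in PDE12+/+ + mtPAP, 1 ended before +3, a share of 0.126% (0.0223 to 0.712), and 99.6% (98.9 to 99.9) ended at +3. None of these reads ended at the DB, which allows a share of up to 0.379%. For mt-tRNA Ile loss in that library was 20.5% (18.5 to 22.8), 13 points above PDE12+/+ with intervals apart. In PDE12-/- + mtPAP loss was 8.82% (4.11 to 17.9) of 68 reads for mt-tRNA Gln and 6.49% (3.75 to 11.0) of 185 reads for mt-tRNA Ile, both below PDE12-/- with intervals apart. In that library C stood at +2 in 7 of 65 reads of mt-tRNA Gln and in 5 of 179 of mt-tRNA Ile. Most reads that reached +3 there thus did not hold CCA. Over the 22, intervals of loss were apart in 72.7% with against without mtPAP in PDE12+/+, with loss higher in 9 and lower in 7. In PDE12-/- 77.3% were apart, with loss higher in 14 and lower in 3, which included mt-tRNA Gln and mt-tRNA Ile. Between the mtPAP libraries 95.5% were apart, with loss higher in PDE12-/- + mtPAP in 9 and lower in 12.

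Many reads of both mt-tRNAs had A where CCA has C, in shares that differed widely between libraries for mt-tRNA Gln. In mt-tRNA Ile, A at +2 made up 37.9% (31.6 to 44.6) of reads in PDE12+/+, 34.1% (28.1 to 40.8) in PDE12-/-, 29% (27.2 to 30.8) in PDE12-/- + WT, 46.7% (45.7 to 47.6) in PDE12-/- + E351A, 39.9% (37.1 to 42.7) in PDE12+/+ + mtPAP and 96.1% (92.1 to 98.1) in PDE12-/- + mtPAP. Among the 22 mt-tRNAs this was the highest share in PDE12-/- and PDE12-/- + mtPAP and took place 2 or place 4 elsewhere, and the median of the other 20 ranged from 1.29% to 3.16%. In the order of these shares, neighbours among the 4 lowest libraries overlapped, and PDE12-/- + E351A and PDE12-/- + mtPAP were each apart from the library below.

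In mt-tRNA Gln, the share with A at +2 ranged more widely. It was 0.898% (0.643 to 1.25) in PDE12-/- + WT, 1.26% (0.687 to 2.31) in PDE12+/+ + mtPAP, 4.36% (2.74 to 6.87) in PDE12-/-, 12.7% (11.3 to 14.3) in PDE12+/+, 30.7% (29.7 to 31.6) in PDE12-/- + E351A and 89.2% (79.4 to 94.7) in PDE12-/- + mtPAP. In that order only the lowest 2 overlapped. The difference of PDE12-/- from PDE12+/+ was thus -8.33 points (-10.6 to -5.45), and that of E351A from wild-type PDE12 was 29.8 points (28.8 to 30.8).

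The shares of mt-tRNAs with intervals apart for A at +2 were 63.6% for PDE12-/- against PDE12+/+, 77.3% for PDE12-/- + WT against PDE12-/-, 68.2% for E351A against PDE12-/- and 95.5% for E351A against PDE12-/- + WT. For mtPAP they were 77.3% in PDE12+/+, 59.1% in PDE12-/- and 72.7% between the libraries. mt-tRNA Gln was apart in each of these 7 comparisons. mt-tRNA Ile overlapped in 3 of them, which were PDE12-/- against PDE12+/+, PDE12-/- + WT against PDE12-/- and PDE12+/+ + mtPAP against PDE12+/+.

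In mt-tRNA Gln the A at +2 went with A at +1 and with A at the DB, where the gene encodes G. In PDE12+/+, 257 of 1946 reads had A at the DB, 281 of 1926 had A at +1 and 239 of 1883 had A at +2. With E351A the numbers were 2932 of 9468, 2984 of 9123 and 2730 of 8900, and in PDE12-/- + mtPAP they were 59 of 68, 59 of 66 and 58 of 65. As shares, A at the DB was 13.2% (11.8 to 14.8), 31.0% (30.04 to 31.9) and 86.8% (76.7 to 92.9) in these libraries, 2.53% (1.49 to 4.29) in PDE12-/-, 0.616% (0.421 to 0.902) in PDE12-/- + WT and 0.631% (0.27 to 1.47) in PDE12+/+ + mtPAP. The 3 positions thus rank the libraries alike, apart from the lowest 2, whose intervals overlapped. The base before the DB is an encoded A and is not in the tables, so the point at which such a run of A began was not seen, and positions are not linked read by read.

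**Figure D3:**
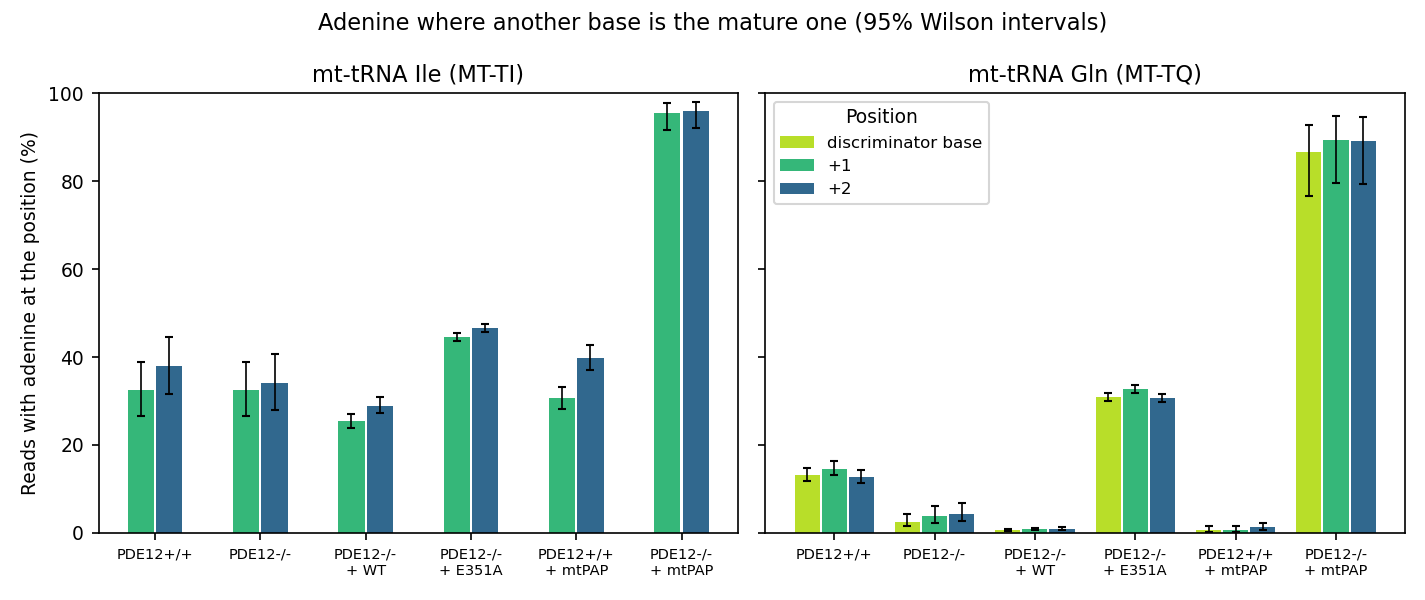
Percent of reads with adenine (y axis) at +1 and +2 of mt-tRNA Ile and at the discriminator base, +1 and +2 of mt-tRNA Gln in each library (x axis), with 95% Wilson intervals. The discriminator base of mt-tRNA Ile is an encoded adenine and is left out. In mt-tRNA Gln the bars of a library are close to each other, as in PDE12-/- + E351A with 31.0%, 32.7% and 30.7%.

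Extended reads of mt-tRNA Gln and reads without C at +2 were of similar number in the libraries with many of either. In PDE12+/+, 263 reads were at +4 and 239 had another base than C at +2, with E351A these numbers were 3012 and 2738, and in PDE12-/- + mtPAP they were 56 and 58. If as many as possible of the reads without C at +2 were extended, the extension among reads with C at +2 would be as low as 1.49% in PDE12+/+ and 5.04% with E351A, and if as few as possible were, it would be as high as 16.3% and 55.4%. In PDE12-/- the same bounds were 0% and 9.03%, and in PDE12-/- + WT 0% and 1.08%. In mt-tRNA Ile the lower bound stayed above 0 in 5 libraries, from 21.5% with E351A to 45.1% in PDE12+/+ + mtPAP, so that some reads with C at +2 were extended in each of these. In PDE12-/- + mtPAP, 5 of 179 reads of mt-tRNA Ile had C at +2, and the bounds were 0% and 100%.

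Reads of mt-tRNA Ile also held bases that equal the genome beyond the gene, as printed in capitals after the gene's last 12 bases. G at +1 made up 13.8% (12.5 to 15.2) of reads in PDE12-/- + WT, from 352 of 2553, and 9.68% (9.15 to 10.2) with E351A, from 1138 of 11761. In the other 4 libraries it ranged from 0.163% to 1.63%, from 1 to 3 reads. G at +2 showed the same libraries, with 14.8% (13.4 to 16.3) and 7.60% (7.13 to 8.11) against at most 1.12%. Further on, C at +4, the base of the genome there, made up 27.7% (25.4 to 30.1) of reads in PDE12-/- + WT and 14.7% (13.9 to 15.5) with E351A. T at +5 made up 21.6% (19.4 to 24) and 5.44% (4.92 to 6.00). C at +4 was held by 381 and 1062 reads and G at +2 by 352 and 864. Not all reads with C at +4 thus held the bases of the genome throughout. At +7 the T of the genome was at 5.88% (5.28 to 6.55) with E351A and at 0.676% (0.310 to 1.47) in PDE12-/- + WT.

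**Figure D4:**
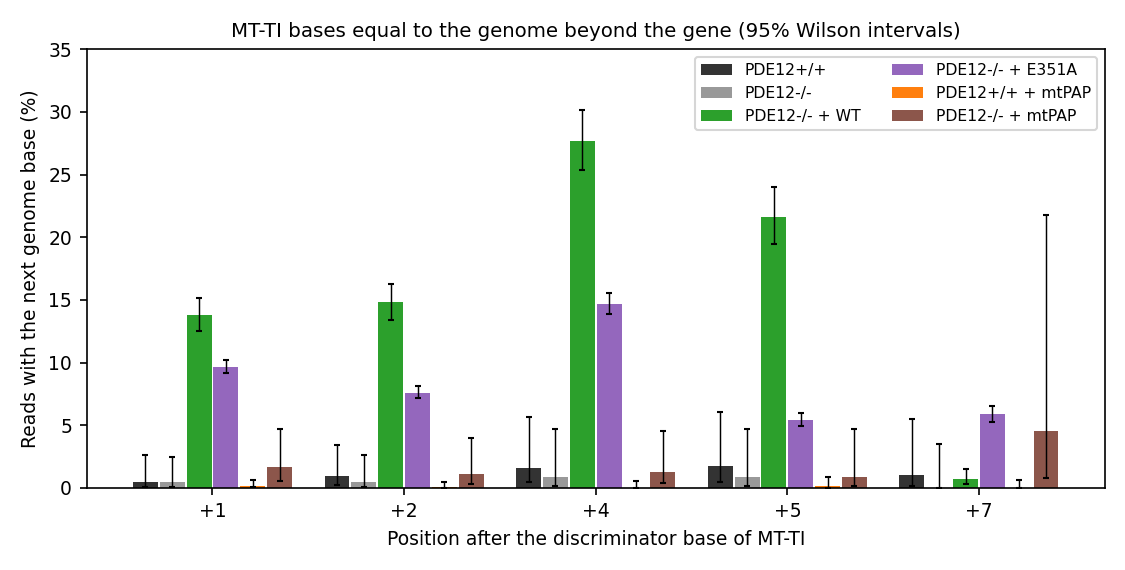
Percent of mt-tRNA Ile reads (y axis) with the base of the genome at the 5 positions up to +7 (x axis) where it differs from the mature end and from adenine, by library, with 95% Wilson intervals. PDE12-/- + WT and PDE12-/- + E351A stand above the others at +1, with 13.8% and 9.68%.

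For 16 of the 22 mt-tRNAs the genome has G or T at +1 or +2, so that such bases can be seen. At the first such position, mt-tRNA Ile had the highest share of the 16 in PDE12-/- + WT, with MT-TN next at 7.92% and a median of 0.154% over the other 15. With E351A it was second to MT-TN, at 24.6%, and the median of the other 15 was 0.136%. mt-tRNA Gln cannot be read at +1 and +2. At +4, where the genome has T, 133 of 3012 reads of mt-tRNA Gln had T with E351A, or 4.42% (3.74 to 5.21), and 2 of 263 in PDE12+/+.

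A was by far the most frequent base beyond +3. Over all positions from +4, A made up 99.2% of the bases of mt-tRNA Ile in PDE12+/+, 99.7% in PDE12-/-, 99.8% in PDE12+/+ + mtPAP and 97.4% in PDE12-/- + mtPAP. In PDE12-/- + WT it was 89.6%, with 5.95% C and 4.25% T, and with E351A 94.6%, with 3.57% C and 1.71% T. For mt-tRNA Gln it was 99.3% in PDE12+/+, 96.1% with E351A and 100% of 433 bases in PDE12-/- + mtPAP, while the other 3 libraries held 88 bases or fewer. With E351A, 199 of the 3012 reads of mt-tRNA Gln at +4 had C, which neither a tail of A nor the genome would give there.

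Extensions of mt-tRNA Ile were longer than those of mt-tRNA Gln in PDE12+/+ and with E351A, and shorter in PDE12-/- + mtPAP. Among extended reads, those with 6 nt or more beyond CCA made up 60.8% (52.0 to 68.9) for mt-tRNA Ile and 20.2% (15.7 to 25.4) for mt-tRNA Gln in PDE12+/+, and 51.4% (50.2 to 52.5) and 22.9% (21.4 to 24.4) with E351A. In PDE12-/- + mtPAP they made up 7.05% (3.98 to 12.2) of 156 reads for mt-tRNA Ile and 87.5% (76.4 to 93.8) of 56 reads for mt-tRNA Gln. Most extended reads of that library did not hold CCA, since C stood at +2 in 5 of 179 and 7 of 65 reads. The median extension of mt-tRNA Ile was 5 or 6 nt in 5 libraries and 2 nt in PDE12-/- + mtPAP, and that of mt-tRNA Gln was 5 nt in PDE12+/+, 2 nt with E351A and 8 nt in PDE12-/- + mtPAP. In that last library 48.2% (35.7 to 61.0) of the extended mt-tRNA Gln reads reached +12, beyond which the tables list no read of mt-tRNA Gln.

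**Figure D5:**
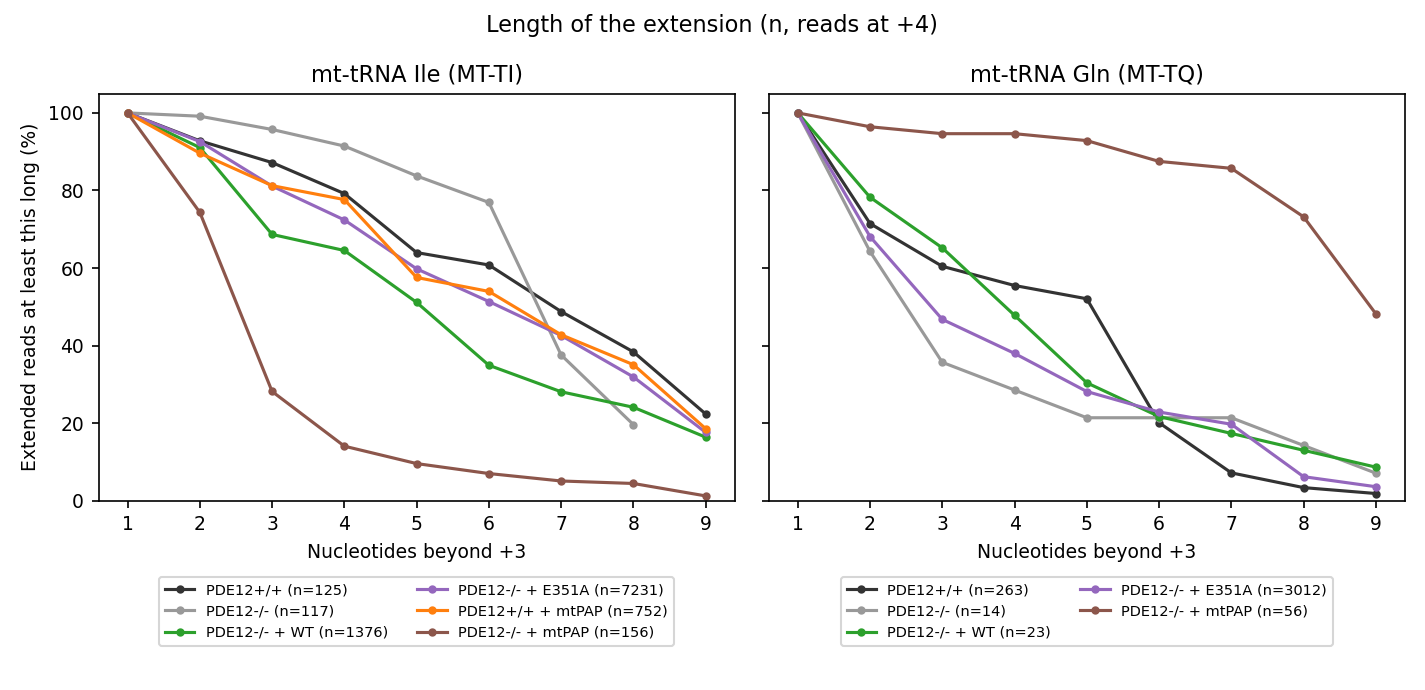
Percent of extended reads (y axis) that carry at least the number of nucleotides beyond +3 on the x axis, by library. PDE12+/+ + mtPAP is left out for mt-tRNA Gln, where 2 reads were extended. In PDE12-/- + mtPAP 87.5% of the extended mt-tRNA Gln reads had 6 nt or more, against 7.05% for mt-tRNA Ile.

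RNA-seq gave few counts at the 2 genes. The tables hold 2 columns per sample, named fwd and rev, and it is not stated whether these are strands of the genome or of each gene. For MT-TI, fwd counts were 0, 6 and 8 in PDE12+/+ and 12, 10 and 11 in PDE12-/-, and rev counts were 5, 8 and 5 against 11, 0 and 6. The fwd counts of MT-TI did not overlap between genotypes, as held for 5 of 70 features or 7.14%, and its rev counts did. For MT-TQ, fwd counts were 8, 19 and 17 against 16, 24 and 23, and rev counts were 2, 2 and 2 against 7, 2 and 4, with overlap in both. Relative to each sample's total count, MT-TI fwd and MT-TQ fwd were both higher in PDE12-/- without overlap, and a lack of overlap in either direction held for 14 of 70 features or 20%.

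The log2 fold change in PDE12-/- was 0.89 for MT-TI fwd (adjusted p = 0.726, edgeR quasi-likelihood fit, Benjamini-Hochberg) and -0.52 for MT-TI rev (adjusted p = 0.944). For MT-TQ it was 0.17 for fwd (adjusted p = 0.991) and 0.67 for rev (adjusted p = 0.944), by the same edgeR test. None of the 70 features, 2 for each of 35 genes, passed the threshold (0%), with 5 at an unadjusted p under 0.05 in edgeR and 0 past the threshold in DESeq2. With the replicate number as a block, 4 features or 5.71% passed, none of them at MT-TI or MT-TQ, where the lowest adjusted p from edgeR was 0.332. Sample totals ran from 36338 to 104708 counts, of which 15 to 46 lay at MT-TI and MT-TQ.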

How the data were processed

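MPAT-Seq reads were trimmed of primers with cutadapt by the authors, who mapped those longer than 20 nt with Bowtie2 to GRCh38 extended by 30 undetermined bases after each mitochondrial tRNA and rRNA. Each deposited table holds values of another kind than a gene count, namely unnormalized counts of reads per position and base. RNA-seq reads were trimmed with Trim Galore and mapped with Bowtie2 by the authors, who dropped reads of 12S and 16S rRNA and separated strands with SAMtools and deposited raw counts per gene and strand made with Rsubread. Tool versions are not given in the sources used here. Samples were grouped by their labels, except the genotype of the mtPAP libraries, taken from the deposited name.

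Shares and intervals were computed with SciPy 1.17.1 in Python 3.11.15, and for a count of 0 the share that 3 reads make up is given as its upper limit. For RNA-seq, edgeR 4.0.16 (R 4.3.3) was used with TMM factors, a common dispersion and its quasi-likelihood test of genotype, with Benjamini-Hochberg adjustment over 70 features and a threshold of 0.05. DESeq2 1.42.0 was an alternative. The interval and RNA-seq procedures were tested on simulated data. Simulated reads were independent, unlike copies made by PCR. Simulated RNA-seq changes were placed only in features with higher expected counts than those of MT-TI and MT-TQ. They therefore do not show whether a change at so few counts would be found. Same-numbered RNA-seq samples deviated together (r = 0.545, 0.386 and 0.148), although replicate 3 of PDE12+/+ correlated better with another number than with its own. The labels do not say that equal numbers are pairs, so the number served as a block only in an alternative fit. MT-TI and MT-TQ were named in every library, other mt-tRNAs where they stood next to a member in an order, and MT-TM, MT-TY and MT-TC as neighbours. Members, lists and comparisons were chosen with earlier results of these data known. Alternatives are given in the closing section. The table of MT-TY was shifted by 1 base in 3 libraries to start at the DB, and in PDE12+/+ a table printed as MT-TT was read as MT-TD by its length.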

Additional observations from a re-analysis of the deposited data

Results flagged for a closer look

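The difference with against without overexpressed mtPAP had opposite signs in the genotypes for 3 of the 6 combinations of mt-tRNA and main measure (extension, loss and A at +2), with Wilson intervals apart in each genotype. Extension beyond +3 of mt-tRNA Gln differed by -13.9 points in PDE12+/+ and by 82.2 points in PDE12-/-, and A at its +2 by -11.4 and 84.9 points. Loss before +3 of mt-tRNA Ile differed by 13 points in PDE12+/+ and by -32.6 points in PDE12-/-. The difference between the genotypes was not tested, since there was 1 library per condition. How many of the 22 mt-tRNAs had such opposite signs was not counted, so 3 of 6 has no background. Over the 22, with intervals apart, loss was higher with mtPAP in 9 and lower in 7 in PDE12+/+. In PDE12-/- it was higher in 14 and lower in 3. For extension these numbers were 15 and 4 in PDE12+/+ and 20 and 1 in PDE12-/-. For A at +2 they were 9 and 8, and 8 and 5. The PDE12-/- + mtPAP values of mt-tRNA Gln rest on 68 reads at the DB. With the genotypes of the labels, extension of mt-tRNA Gln differed by 76.1 points in PDE12+/+ and by -7.89 points in PDE12-/-, so the signs were opposite under both assignments. A at +2 of mt-tRNA Gln then differed by 76.5 and -3.10 points. Loss of mt-tRNA Ile then differed by -1.04 points with overlapping intervals in PDE12+/+ and by -18.5 points in PDE12-/-, with the same sign in both. A at +1 and at the DB of mt-tRNA Gln also had opposite signs by the deposited names, at -13.96 and 85.6 points and at -12.6 and 84.2 points.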

How the results depend on the processing

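With 1 library per condition, all MPAT-Seq comparisons rest on counting error, and mt-tRNA Gln in PDE12-/- + mtPAP has the fewest reads. Of 88 recalculations of the 42 comparisons of the pair, 54 kept direction and call, 22 had the opposite sign, 6 were no longer apart and 6 became apart. Of the 22, 6 are differences between the mtPAP libraries, whose sign exchanging the labels turns by construction, and the cause of the other changes was not tested. All differences are in percentage points.

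With reads at the DB as denominator, extension of mt-tRNA Ile differed by -18.2 for PDE12-/- against PDE12+/+, by 21.1 for E351A against PDE12-/-, by 14 for E351A against PDE12-/- + WT and by -0.539 for PDE12+/+ with against without mtPAP, and extension of mt-tRNA Gln by -10.8 for PDE12-/- against PDE12+/+. With only A at +4, mt-tRNA Ile differed by -11.0 for PDE12-/- + WT against PDE12-/-, by -4.93 for E351A against PDE12-/-, by 6.08 for E351A against PDE12-/- + WT and by 9.89 for PDE12+/+ with against without mtPAP, and mt-tRNA Gln by -6.53 for PDE12-/- against PDE12+/+. Of these differences, that of -4.93 had overlapping intervals and the others had intervals apart. With +5 in place of +4, mt-tRNA Ile differed by -0.132 and -2.05 for E351A against PDE12-/- and PDE12-/- + WT, and for PDE12-/- + mtPAP by 6.64 against PDE12-/- and 5.27 against PDE12+/+ + mtPAP, and the intervals, which were apart with +4 except for the first, overlapped in all 4. Loss of mt-tRNA Ile counted from +1 differed by 6.60 for PDE12-/- + WT against PDE12-/- and by -5.25 between the mtPAP libraries. A at +1 in place of +2 of mt-tRNA Ile differed by 0.050 for PDE12-/- against PDE12+/+ and by -1.80 for PDE12+/+ with against without mtPAP.

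With the genotypes of the mtPAP libraries by the labels, differences with against without mtPAP in PDE12+/+ were 30.4 (extension), -1.04 (loss) and 58.2 (A at +2) for mt-tRNA Ile and 76.1, 3.99 and 76.5 for mt-tRNA Gln. In PDE12-/- they were 7.99 for extension and 5.74 for A at +2 of mt-tRNA Ile, and -7.89 for extension and -3.10 for A at +2 of mt-tRNA Gln. Between the mtPAP libraries they were -21.2, 14.1 and -56.2 for mt-tRNA Ile and -90.1, -8.70 and -88.0 for mt-tRNA Gln. Leaving out mt-tRNAs under 100 reads at +3 left 19 to 22 of them and kept all 21 counts over mt-tRNAs within 1.5 times.

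In RNA-seq, 4 features passed with the replicate block and 2 with library totals without TMM, against 0 otherwise, and the block changed no call at MT-TI or MT-TQ. Leaving out each sample moved the log2 fold change of MT-TQ fwd between -0.11 and 0.38, of MT-TQ rev between 0.21 and 0.94, of MT-TI fwd between 0.53 and 1.63 and of MT-TI rev between -1.35 and -0.04, with 0 features passed each time. No feature of MT-TI or MT-TQ had 10 counts in every sample, so that filter gave no value for them.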

Other observations

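mt-tRNA Tyr (MT-TY) and mt-tRNA Cys (MT-TC), the other overlapping pair among the mt-tRNAs, and mt-tRNA Met (MT-TM), the gene next to MT-TQ, were set beside the Ile and Gln pair. Loss before +3 in PDE12-/- against PDE12+/+ was 20.3% (17.1 to 23.8) against 32.5% (30.3 to 34.8) for MT-TY, 1.67% (1.58 to 1.76) against 6.54% (6.36 to 6.73) for MT-TC and 3.56% (3.39 to 3.74) against 5.82% (5.67 to 5.99) for MT-TM, each lower in PDE12-/- with intervals apart. Extension beyond +3 in PDE12-/- against PDE12+/+ was 73.2% against 33.8% for MT-TY, 13.8% against 2.25% for MT-TC and 17.4% against 5.96% for MT-TM, each higher in PDE12-/-.

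MT-TC had A at +2 far more often than at +1, with 38.3% (38.0 to 38.7) against 0.483% (0.440 to 0.529) in PDE12-/- + E351A. In mt-tRNA Gln of the same library these shares were 30.7% and 32.7%. MT-TM had A at +2 in at most 1.27% of reads in any library.

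In PDE12-/- + WT, 192 of 2010 reads of mt-tRNA Ile had C at +3, or 9.55% (8.34 to 10.9), where both the mature end and the genome have A.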
